A study of Mus musculus with 2 samples.

Results

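The miR-200 family and miR-205 were examined in the small RNA of J1 mouse ES cells, an embryonic stem cell line. The members are 6 of 1174 mouse hairpins that GENCODE annotates as miRNAs. Mir200b, Mir200a and Mir429 lie in a cluster on chromosome 4, Mir200c and Mir141 in a cluster on chromosome 6, and Mir205 on chromosome 1. They were chosen by name, and the reads of every sequenced tag that matched one of these hairpins without mismatch were counted in both libraries. The cells carried no labelled genetic change and were grown on gelatin with Knockout Serum Replacement and LIF. For 24 h they received 1 mM AICAR, an activator of AMP-activated protein kinase, or the same volume of DMSO. The control sample is titled J1_U, but its treatment label is DMSO. There was 1 library per condition, so no difference below has a replicate library in these data. Every test and interval compares the reads of these libraries, not the conditions, and covers counting error only.

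A miRNA is cut from the stem of a hairpin. Either side of the stem, the 5p or the 3p arm, can give a mature miRNA, and bases 2 to 8 from its 5′ end, the seed, pair with target mRNAs. The miR-200 family is known for holding cells in an epithelial state by repressing the transcription factors ZEB1 and ZEB2, which in turn repress transcription of the family. The miR-205 gene lies elsewhere and has another seed, but its product also represses ZEB factors, and both are markers of epithelial tissues.

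The mature miRNA of the more abundant arm of each hairpin is printed because the seeds define the groups compared. The sequences are those of RefSeq for GRCm38.p6, with the seed in capitals.
miR-200b-3p: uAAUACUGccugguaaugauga
miR-200c-3p: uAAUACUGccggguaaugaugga
miR-429-3p: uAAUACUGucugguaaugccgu
miR-200a-3p: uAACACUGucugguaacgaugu
miR-141-3p: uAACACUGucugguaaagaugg
miR-205-5p: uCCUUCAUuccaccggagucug
The first 3 share the seed AAUACUG, and miR-200a-3p and miR-141-3p share AACACUG. Counted from 1 at the 5′ end, the seeds differ by the substitution U4C from the first group to the second. The division by seed cuts across the division by cluster. Of 22 positions compared, miR-200b-3p and miR-200c-3p from different clusters differed at 2 (U11G and A22G), whereas miR-200b-3p and miR-200a-3p from the same cluster differed at 4 (U4C, C9U, U17C and A22U). Across the clusters, miR-200a-3p and miR-141-3p also differed at 2 positions (C17A and U22G). Tags of members this alike could be confused in counting, but none of the 88 distinct tags that matched the 6 hairpins matched a second hairpin. Of these tags, 51 occurred in both libraries.

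All 6 hairpins are on the minus strand of GRCm38. Mir200b (chr4:156055681-156055750), Mir200a (chr4:156054896-156054985) and Mir429 (chr4:156053905-156053987) span 1846 bp within an intron of Ttll10, with 695 bp between Mir200b and Mir200a and 908 bp between Mir200a and Mir429. Mir429 also overlaps an exon of the noncoding transcript Gm13648. Mir200c (chr6:124718322-124718390) and Mir141 (chr6:124717914-124717985) span 477 bp with 336 bp between them, in an intron of the antisense transcript Gm15884. The nearest coding genes are Phb2, 964 bp from Mir141, and Ptpn6, 2317 bp from Mir200c. Mir205 (chr1:193507463-193507530) lies in an exon of the lincRNA 4631405K08Rik.

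The DMSO library held 18870345 clean reads and the AICAR library 21091226, of which 11.5% and 15.7% were assigned to miRNA arms. Values are given as RPM (reads scaled to 1000000 clean reads), so that 1 read was 0.053 RPM with DMSO and 0.0474 RPM with AICAR. The ES cell label was checked with 10 miRNAs of the miR-290 and miR-302 clusters. For each hairpin the arm with the most reads was taken. In the DMSO library these ranged from 1355 to 11544 RPM for the 6 listed hairpins of the miR-290 cluster, which is abundant in mouse ES cells, and from 0.159 to 7.79 RPM for the 4 of the miR-302 cluster. Tags shorter than 21 nt made up 9.34% of the assigned miRNA reads with DMSO and 3.76% with AICAR, a difference between the libraries that bears on the lengths below.

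The miR-200 family and miR-205 were present in both libraries, and the 7 of their arms that passed the filter of 1 RPM had between 1.01 and 56.3 RPM. In the DMSO library, miR-200a-3p had 917 reads (48.6 RPM), and in the AICAR library it had 1187 reads (56.3 RPM). For miR-200b-3p the counts were 738 (39.1 RPM) and 814 (38.6 RPM). Next came miR-200c-3p, with 387 reads (20.5 RPM) in DMSO and 534 (25.3 RPM) in AICAR. These arms stood 137th, 150th and 195th among the 508 miRNA arms with at least 1 RPM in a library when ranked in DMSO.

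The third miRNA of the chromosome 4 cluster, miR-429-3p, had 327 reads (17.3 RPM) in DMSO and 335 (15.9 RPM) in AICAR. On the other side of the Mir200b stem, miR-200b-5p had 195 reads (10.3 RPM) and 214 reads (10.1 RPM). For miR-205-5p, 135 reads (7.15 RPM) and 176 reads (8.34 RPM) were counted. The least abundant arm above the 1 RPM filter was miR-141-3p, with 19 reads (1.01 RPM) and 29 reads (1.37 RPM).

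These 7 arms stood in the same order in both libraries, but not every neighbour in that order was apart. The 95% Poisson intervals of miR-200c-3p and miR-429-3p overlapped in DMSO (18.5 to 22.7 against 15.5 to 19.3 RPM) and were apart in AICAR (23.2 to 27.6 against 14.2 to 17.7 RPM). Those of miR-200b-5p and miR-205-5p were apart in DMSO (8.93 to 11.9 against 6 to 8.47 RPM) and overlapped in AICAR (8.83 to 11.6 against 7.16 to 9.67 RPM). The other neighbours were apart in both libraries.

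The remaining 5 arms were near the limit of detection, taken as 3 reads (0.159 RPM in DMSO and 0.142 RPM in AICAR). There were 17 and 4 reads of miR-200a-5p, 3 and 4 of miR-141-5p, 4 and 3 of miR-205-3p, and 1 in each library of miR-200c-5p. No read of miR-429-5p was found in either library, which allows a level of up to 0.159 RPM in DMSO.

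**Figure D1:**
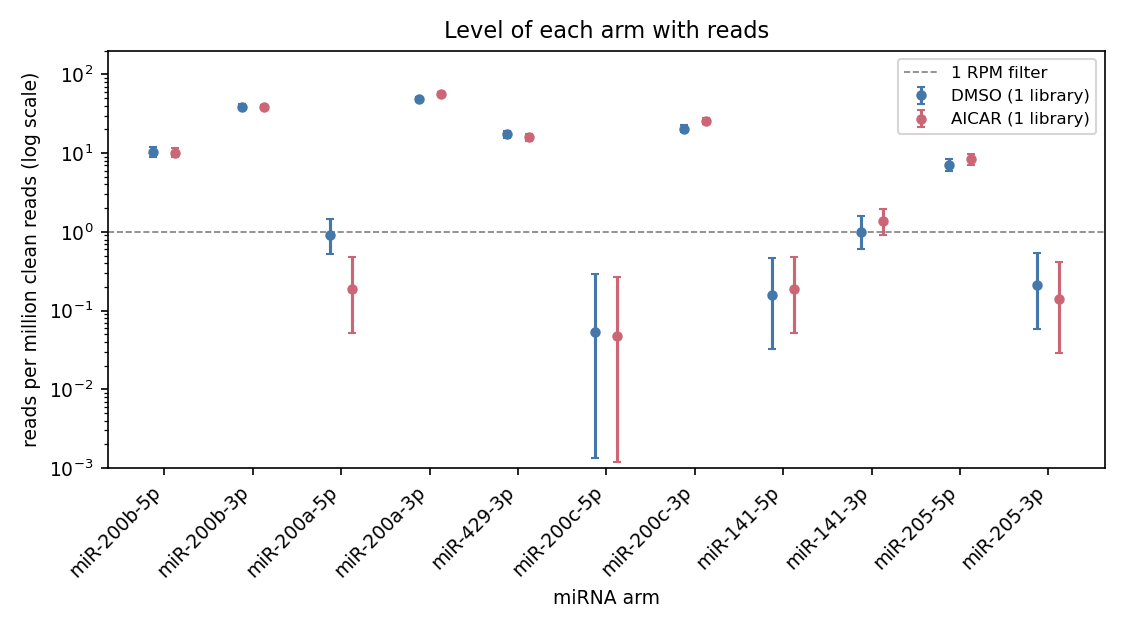
RPM on a log scale of the 11 arms with reads, for DMSO (blue) and AICAR (red), with 95% Poisson intervals for counting error. The arms of 1 hairpin stand side by side, from 0.0474 RPM for miR-200c-5p to 56.3 RPM for miR-200a-3p, and the dashed line marks the 1 RPM filter.

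Whether AICAR treatment went with a different level of these miRNAs was asked next. An arm was called where its RPM differed by a fold of at least 2 or at most 0.5 and the two-sided p of Fisher's exact test was at most 0.01. Of the 7 arms tested, 0 were called higher and 0 lower in AICAR. With edgeR's exact test at an assumed coefficient of variation of 0.2 or 0.4, 0 were called too, but only the p was replaced. No fold of these arms reached a threshold, so no p could have changed these counts. Among all 508 arms tested, 56 (11%) were called higher and 48 (9.45%) lower. At any fold, p was at most 0.01 for 2 of the 7 arms and for 304 (59.8%) of the 508, and the same 2 arms had an unadjusted p under 0.05. The median fold of the 508 arms was 1.10 in these units (log2 0.13), and that of the 7 arms was 1.16 (log2 0.21).

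The 2 arms with p at most 0.01 were miR-200a-3p and miR-200c-3p, both with more RPM in AICAR. For miR-200a-3p the fold was 1.16 (95% exact interval 1.06 to 1.26), with an adjusted p of 0.00161 by Fisher's exact test and the Benjamini-Hochberg method over the 508 arms. For miR-200c-3p it was 1.23 (1.08 to 1.41), with an adjusted p of 0.00313 in the same test. Both intervals include the median fold of all arms. Relative to the reads assigned to miRNA arms, a scaling that multiplies every fold by 0.734, the directions turned, to 0.850 for miR-200a-3p and 0.906 for miR-200c-3p.

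For the other 5 arms the interval of the fold included 1. The fold was 0.987 (0.892 to 1.09) for miR-200b-3p, 0.982 (0.805 to 1.20) for miR-200b-5p and 0.917 (0.785 to 1.07) for miR-429-3p. For miR-205-5p it was 1.17 (0.927 to 1.47). With few reads, miR-141-3p had a wide interval, from 0.740 to 2.58 around 1.37, which includes both 1 and the threshold of 2. The other 6 intervals lay between 0.785 and 1.47, inside both thresholds.

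**Figure D2:**
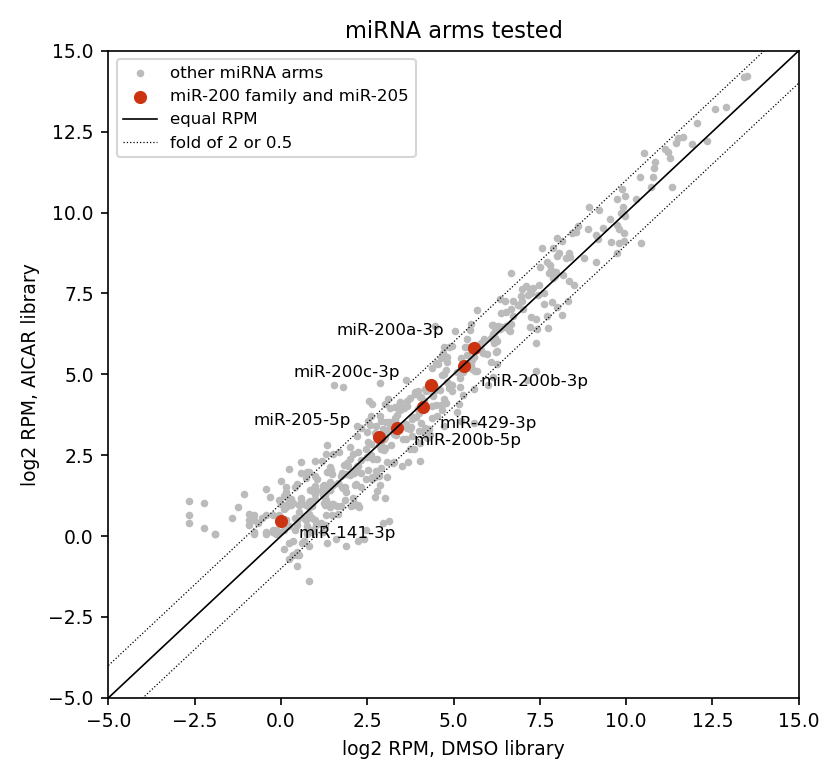
Log2 RPM in the DMSO library (x) and the AICAR library (y) of the 508 tested arms, each with reads in both libraries. The 7 members (red) lie along the line of equal RPM, between the dotted lines that mark a fold of 2 and of 0.5.

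Among the arms outside the family, the 3 nearest to miR-200a-3p in the plane of log2 RPM in both libraries were miR-19b-3p, miR-322-3p and miR-151-3p. The distances on the log2 scale were 0.078, 0.086 and 0.187. The reads of miR-19b-3p numbered 927 in DMSO and 1252 in AICAR (49.1 and 59.4 RPM), those of miR-322-3p 882 and 1242, and those of miR-151-3p 806 and 1205. Nearness here is in 1 level per library only.

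The level was then compared by cluster, since the hairpins of a cluster can come from 1 primary transcript. The 3p arms of the chromosome 4 cluster together had 1982 reads in DMSO and 2336 in AICAR (105 and 111 RPM). Those of the chromosome 6 cluster had 406 and 563 reads (21.5 and 26.7 RPM). The fold was 1.05 (0.993 to 1.12) for chromosome 4 and 1.24 (1.09 to 1.41) for chromosome 6, and relative to miRNA reads both fell below 1, at 0.774 and 0.911, while chromosome 4 was also below 1 under TMM (0.985) and median-ratio (0.961) scaling. The ratio of these folds does not depend on the scaling and was 0.850 (0.736 to 0.981, two-sided Fisher's exact p = 0.0244), which misses the 0.01 threshold. It passed with 1 mismatch allowed, at 0.818 (Fisher's exact p = 0.00251), whereas the interval included 1 with the most used tag of each arm only (0.873, 0.723 to 1.05) and with tags of at least 21 nt only (0.876, 0.757 to 1.01). The chromosome 4 cluster held 83.0% of the family's 3p reads in DMSO (81.4 to 84.5) and 80.6% in AICAR (79.1 to 82.0).

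Grouped by seed, the AAUACUG miRNAs had 1452 reads in DMSO and 1683 in AICAR (76.9 and 79.8 RPM). The AACACUG miRNAs had 936 and 1216 reads (49.6 and 57.7 RPM). The folds were 1.04 (0.966 to 1.11) and 1.16 (1.07 to 1.27), and both were below 1 relative to miRNA reads, at 0.761 and 0.853, the first also under TMM (0.969) and median-ratio (0.945) scaling. The ratio of the folds was 0.892 (0.798 to 0.998, two-sided Fisher's exact p = 0.0429), above the 0.01 threshold. It passed with tags of at least 21 nt only, at 0.841 (Fisher's exact p = 0.00289), and with the most used tag of each arm only, at 0.808 (Fisher's exact p = 0.00128). With 1 mismatch allowed it was 0.908, and the interval (0.820 to 1.01) included 1. The limit of 21 nt removed 105 DMSO and 54 AICAR reads of miR-200a-3p, but 7 and 3 of miR-200b-3p. The most used tag held 74.9% of miR-200a-3p reads in DMSO and 83.7% in AICAR, against 66.0% and 64.7% for miR-200b-3p. The part of these length differences in the ratios was not tested. The AAUACUG group made up 60.8% (58.8 to 62.8) of the family's 3p reads in DMSO and 58.1% (56.2 to 59.9) in AICAR.

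Members of 1 cluster were far from equal in level. In the chromosome 6 cluster, there were 20.4 reads of miR-200c-3p for each read of miR-141-3p in DMSO and 18.4 in AICAR, although 336 bp separate the hairpins. In the chromosome 4 cluster, miR-200a-3p had 2.80 times the reads of miR-429-3p in DMSO and 3.54 times in AICAR. The 4 pairs of 3p arms within a cluster were compared between the libraries. The ratio of folds was 1.26 (1.06 to 1.51) for miR-200a-3p over miR-429-3p, with a Fisher's exact p of 0.00937 that became 0.0372 when adjusted over the 4 pairs. It was 0.852 (0.745 to 0.974) for miR-200b-3p over miR-200a-3p, with a Fisher's exact p of 0.0186, also 0.0372 when adjusted. With the most used tag of each arm only, this ratio was 0.749 (Fisher's exact p = 0.000308). That tag held a larger share of miR-200a-3p reads in AICAR (83.7%) than in DMSO (74.9%). For miR-200b-3p over miR-429-3p (1.08, 0.894 to 1.30) and miR-200c-3p over miR-141-3p (0.904, 0.472 to 1.70) the interval included 1.

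**Figure D3:**
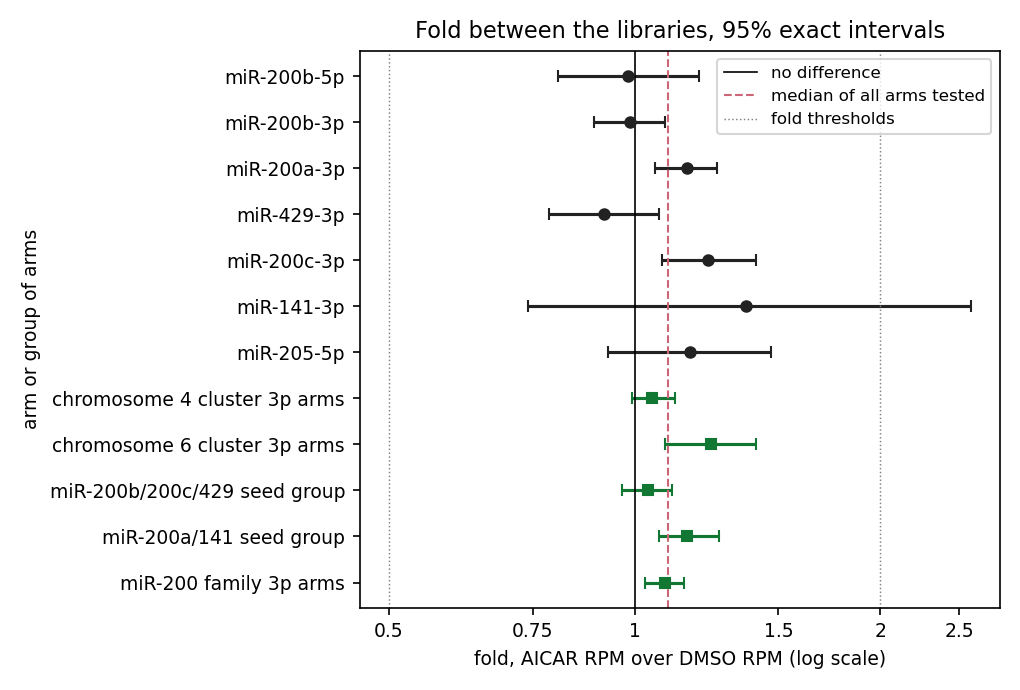
Fold of RPM in AICAR over DMSO on a log scale, with 95% exact intervals, for the 7 tested arms (circles) and for sums of 3p arms by cluster and by seed (squares). All points lie between 0.917 and 1.37, close to the median of the 508 tested arms at 1.10 (dashed line), and the interval of miR-141-3p alone reaches past the dotted threshold at 2.

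The hairpins differed in which arm accumulated. The hairpin of Mir200b is printed because both of its arms were abundant, and that of Mir141 because reads came from its loop. Capitals mark the annotated mature arms.
Mir200b: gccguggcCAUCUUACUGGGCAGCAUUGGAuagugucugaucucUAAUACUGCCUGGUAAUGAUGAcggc
Mir141: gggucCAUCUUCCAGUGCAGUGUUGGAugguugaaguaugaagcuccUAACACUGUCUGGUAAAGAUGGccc
The 5p arm gave 20.9% of the Mir200b reads in DMSO (18.3 to 23.7) and 20.8% in AICAR (18.4 to 23.4). This share was 0.258% in DMSO and 0.187% in AICAR for Mir200c. For Mir429 it was 0 of 327 and 0 of 335 reads, with exact intervals that reach up to 1.12% in DMSO and 1.1% in AICAR. For Mir141 the 5p share of 13.6% and 12.1% rested on 22 and 33 reads. Mir205 was the reverse, with 97.1% of its reads in DMSO (92.8 to 99.2) and 98.3% in AICAR (95.2 to 99.7) from the 5p arm.

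For Mir200a, the 5p share was 1.82% in DMSO (17 of 934 reads) and 0.336% in AICAR (4 of 1191), which differed with p = 0.000657 by Fisher's exact test. The reads behind it were short. Of the 17 DMSO reads, 16 were under 21 nt, and 14 were copies of the 19-nt tag caucuuaccggacagugcu, which ends 3 nt before the annotated end. The AICAR library held 2 copies of that tag. With tags of at least 21 nt, 1 read was left in each library. The share of short tags was lower in the AICAR library for most miRNAs (below), and its part in this difference was not tested.

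Between the arms of Mir141, reads from the loop were found. The stretch between its mature arms is 20 nt long, ugguugaaguaugaagcucc, and 8 reads in DMSO and 5 in AICAR came from it, all starting at the base after the 5p arm. In each library 4 of these covered the loop from end to end. In the same libraries there were 19 and 29 reads of miR-141-3p. The loops of the other hairpins are 14 to 18 nt long and gave 0 reads. Since the shortest tag in the files is 18 nt, only the loop of Mir200c, at 18 nt, could have been read whole.

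The 5′ end of a miRNA sets its seed, and it was fixed for most members. The most used start of all 7 tested arms was the annotated one. Starts away from it made up 10.8% of miR-200b-5p reads in DMSO (21 of 195) and 8.88% in AICAR (19 of 214). For miR-200c-3p they made up 2.84% and 3%, and for miR-200b-3p 0.949% and 1.23%. For miR-200a-3p, 15 of 917 reads (1.64%) in DMSO and 4 of 1187 (0.337%) in AICAR were shifted, with p = 0.00207 by Fisher's exact test, and with tags of at least 21 nt 13 of 812 and 3 of 1133 (Fisher's exact p = 0.00162). These were the smallest p of Fisher's exact test among the 11 member arms with reads, and they were not adjusted. The 4 shifted AICAR reads are near the limit of detection, and no share over all miRNA arms is given for shifted starts. For miR-205-5p, 0 of 135 and 2 of 176 reads were shifted.

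The 3′ end varied more, and these tags are printed because the reads of an arm divide among them. Capitals mark a base beyond the annotated mature miRNA.
miR-200a-3p, 23 nt: uaacacugucugguaacgauguU
miR-200a-3p, 20 nt: uaacacugucugguaacgau
miR-200b-3p, 23 nt: uaauacugccugguaaugaugaC
miR-205-5p, 23 nt: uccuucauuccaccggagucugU
miR-205-5p, 21 nt: uccuucauuccaccggagucu
The most used tags of miR-200a-3p and miR-200b-3p were the 23-nt forms, 1 nt longer than annotated. The 23-nt tag of miR-200b-3p took 66.0% of the reads of that arm in DMSO and 64.7% in AICAR. That of miR-200a-3p took 687 reads (74.9%) in DMSO and 993 (83.7%) in AICAR, whereas its 20-nt tag took 102 (11.1%) and 49 (4.13%). The added base of miR-200a-3p and of miR-205-5p is U, as in the hairpin, so that these reads cannot be told apart from annotated forms with 1 U added.

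Shorter and longer reads were compared between the libraries. Reads under 21 nt made up 11.5% (9.46 to 13.7) of miR-200a-3p in DMSO and 4.55% (3.44 to 5.89) in AICAR. For miR-200b-5p the shares were 13.3% (8.90 to 18.9) and 5.61% (2.93 to 9.59), and for miR-429-3p 3.67% (1.91 to 6.32) and 0.597% (0.0724 to 2.14). Members moved here as most miRNAs did. Of the 293 arms with at least 100 reads in each library, 250 (85.3%) had a lower share under 21 nt in AICAR, including 5 of the 6 member arms, and 255 (87.0%) had a greater mean length, also including 5 of 6. The exceptions were miR-205-5p for short reads (5.19% and 6.25%) and miR-200b-3p for mean length (22.69 and 22.65 nt).

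The 23-nt form of miR-205-5p took more of its reads in the AICAR library. Reads of 23 nt and over were 24 of 135 (17.8%, 11.7 to 25.3) in DMSO and 65 of 176 (36.9%, 29.8 to 44.5) in AICAR, while the 21-nt tag went from 48 reads to 34. The intervals do not overlap. Of the 293 arms, 2 gained more percentage points of such reads, and the median share over the arms was 6.61% in DMSO and 7.73% in AICAR. The arm was singled out after its values were seen, so no test is given.

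**Figure D4:**
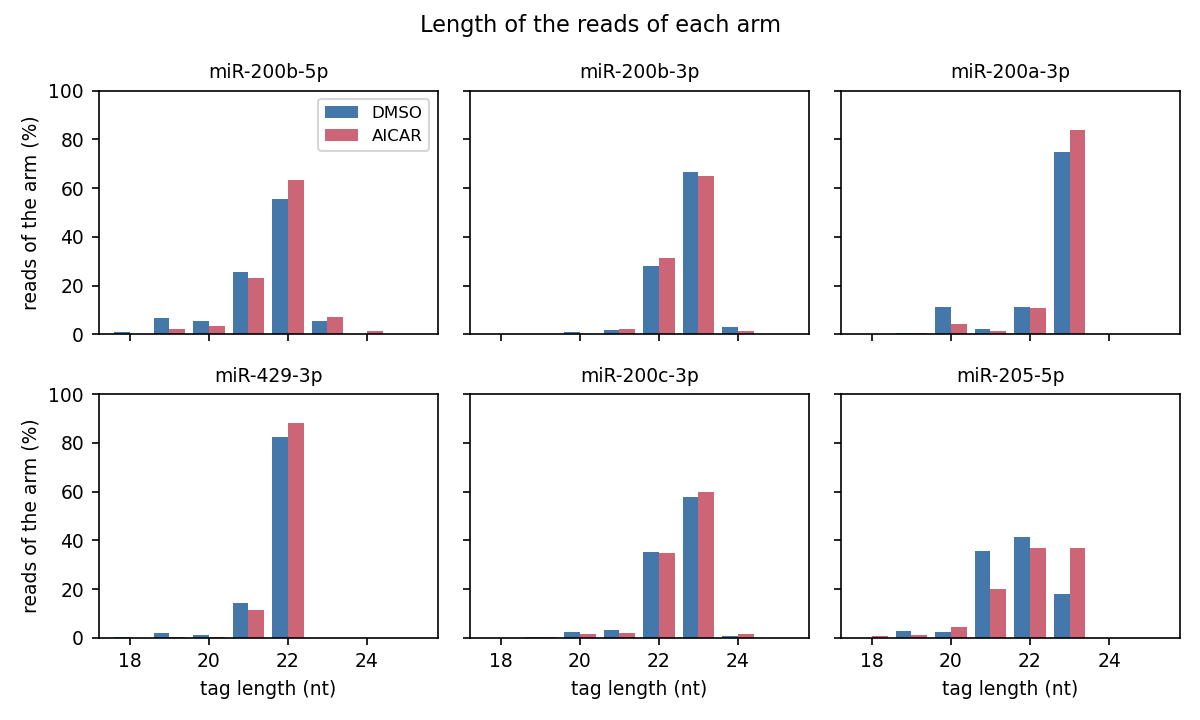
Share of the reads of an arm by tag length in nt for the 6 member arms with at least 100 reads in each library, with DMSO in blue and AICAR in red. The 23-nt bar of miR-205-5p stands at 17.8% in DMSO and 36.9% in AICAR, and the 20-nt bar of miR-200a-3p is lower in AICAR.

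Reads with bases added at the 3′ end that the hairpin does not encode were counted apart, since they are lost when no mismatch is allowed. A tailed read was a member's tag followed by 1 to 3 such bases. The most read tailed tag of miR-200b-3p, miR-200c-3p and miR-205-5p is printed with the tail in capitals. For miR-200a-3p the most read tags with A and with U are both printed.
miR-200b-3p: uaauacugccugguaaugaugacA
miR-200a-3p with A: uaacacugucugguaacgauguuA
miR-200a-3p with U: uaacacugucugguaacgauguuU
miR-200c-3p: uaauacugccggguaaugauggaA
miR-205-5p: uccuucauuccaccggagucugA
The A-tailed tag of miR-200b-3p had 102 reads in DMSO and 130 in AICAR, and its U-tailed tag, not printed, had 44 and 43. For miR-200a-3p, the A-tailed tag had 104 and 109 reads and the U-tailed tag 86 and 149. Over the 3p arms of the family, 464 of 2852 tailed and exact reads (16.3%, 14.9 to 17.7) were tailed in DMSO and 672 of 3571 (18.8%, 17.5 to 20.1) in AICAR. Tails made only of A or only of U were 92.7% of these in DMSO and 94.2% in AICAR, and 7 and 9 tailed reads ended in C or G alone.

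The tailed share differed among members of alike sequence. It was 19.4% (16.9 to 22.1) in DMSO and 21.1% (18.7 to 23.7) in AICAR for miR-200b-3p. For miR-200a-3p it was 18.5% (16.3 to 20.9) and 19.6% (17.6 to 21.8). In contrast, miR-429-3p, which has the same seed as miR-200b-3p, had 12 of 339 reads tailed in DMSO (3.54%, 1.84 to 6.10) and 34 of 369 in AICAR (9.21%, 6.47 to 12.6). For miR-200c-3p the shares were 14.0% (10.9 to 17.6) and 18.6% (15.7 to 21.8). For miR-200b-5p the share was 7.14% (15 of 210 reads) in DMSO and 5.73% (13 of 227) in AICAR, with overlapping intervals (4.05 to 11.5 and 3.08 to 9.59). Tails on miR-205-5p were mostly A, with 12 of 14 in DMSO and 19 of 26 in AICAR. A U added to its 22-nt form would match the hairpin and count as exact, so such U tails could not be seen. The same holds for U on the 22-nt form of miR-200b-5p and for A on that of miR-200c-3p. Added bases that match the hairpin were unseen in any arm, to an extent that was not measured. The median over the 293 arms was 7.44% in DMSO and 10.1% in AICAR. Tags of this kind were looked at after the counts were known, and sequencing errors at the last base were not told apart from tails.

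**Figure D5:**
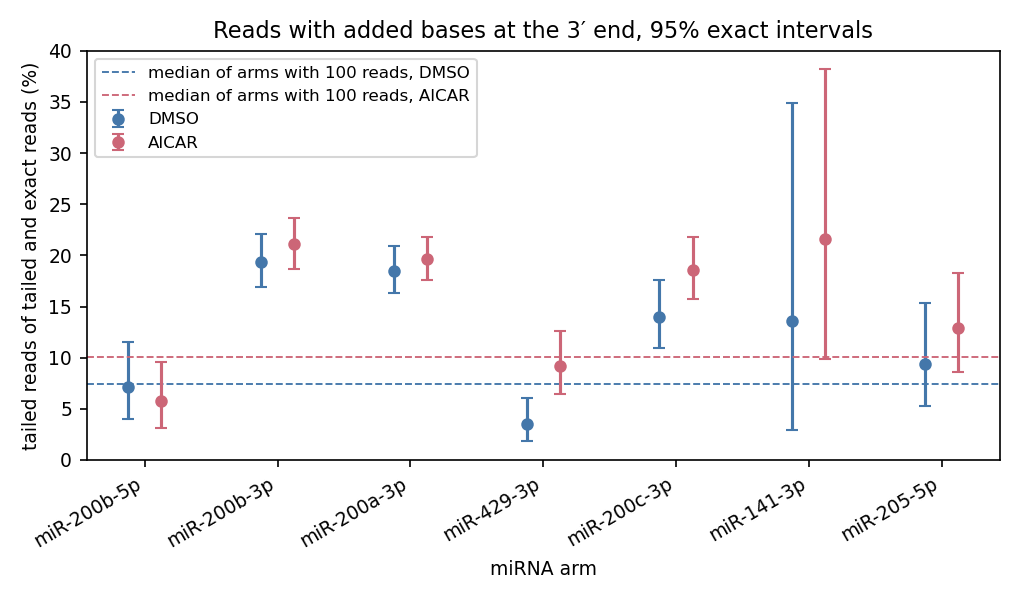
Share of tailed reads among tailed and exact reads of each arm with at least 20 such reads in each library, with 95% exact intervals and the median of 293 arms (dashed) for DMSO (blue) and AICAR (red). The points of miR-200b-3p and miR-200a-3p lie above both medians, and the DMSO point of miR-429-3p at 3.54% lies below.

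Other miRNAs tied to the epithelial and mesenchymal states were set beside the family. The epithelial list held 9 hairpins with reads, and 8 of its 9 arms were tested, of which 1 was called higher and 0 lower (against 11% and 9.45% of all arms). The one called was miR-203-3p, a miRNA of the epidermis, with 32 reads in DMSO and 83 in AICAR (fold 2.32, 1.53 to 3.61). Relative to miRNA reads its fold was 1.70 (1.12 to 2.65), short of the threshold. In those units 0 arms of the list were called higher and 1 lower, miR-375-3p. Among all 508 arms, 21 were called higher and 112 lower in the same units. Per clean read, miR-375-3p, a miRNA of endocrine cells, had 104 reads in DMSO and 71 in AICAR (fold 0.611, 0.445 to 0.834). The most read were miR-182-5p (1003 RPM in DMSO and 1445 in AICAR, fold 1.44), miR-192-5p (581 and 580 RPM, fold 0.998), miR-183-5p (182 and 317 RPM, fold 1.75) and miR-96-5p (124 and 170 RPM, fold 1.37). Of these, miR-182, miR-183 and miR-96 come from 1 cluster. The fold was above 1 for 5 of the 8 arms and below 1 for 3, and relative to miRNA reads above 1 for 4 and below for 4. The median log2 fold of the list was 0.24.

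Of 12 hairpins on the mesenchymal list, 11 had reads, and 8 of its 9 arms were tested. Of these, 1 was called higher and 0 lower (against 11% and 9.45% of all arms). The one called was miR-145a-5p, a miRNA of smooth muscle, with 118 reads in DMSO and 360 in AICAR (fold 2.73, 2.21 to 3.39), and it was also called relative to miRNA reads, at 2.00 (1.62 to 2.49). The most read were miR-21a-5p (556 and 636 RPM, fold 1.14), miR-143-3p (101 and 94.9 RPM, fold 0.942), the miR-199 3p arm (91.9 and 90.9 RPM, fold 0.989) and miR-222-3p (58.2 and 50.0 RPM, fold 0.858). Over the list, the fold was above 1 for 5 of the 8 arms and below 1 for 3, and relative to miRNA reads above 1 for 2 and below for 6. Among the less read arms, miR-22-3p had 551 reads in DMSO and 1208 in AICAR (fold 1.96, 1.77 to 2.17). The median log2 fold was 0.21, beside 0.21 for the 7 member arms, 0.24 for the epithelial list and 0.13 for all 508 arms. The called miRNAs, miR-375-3p and miR-22-3p were chosen for naming after their values were seen.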

How the data were processed

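Small RNA of 2 J1 ES cell samples (DMSO and AICAR) was sequenced. The authors filtered out poor and short reads and deposited the read count of each distinct tag with its length and sequence, as raw counts without normalization. The submitters' processing notes name the mm9 build, but the deposited tags carry no coordinates, and positions given here are those of GRCm38. The counts sum to 18870345 (DMSO) and 21091226 (AICAR) clean reads, which were used as the depth.

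Tags were matched without mismatch to 1174 GENCODE hairpins with symbols that start with Mir. On each arm the most read tag over both libraries was the reference, and assigned tags had a start at most 2 nt and an end at most 4 nt from it. Copies with the same reference tag were 1 miRNA, and tags shared by miRNAs, such as both miR-194 copies, counted for all of them. All 12 mature sequences of the members were found in the RefSeq table. Arms that reached 1 RPM in either library were tested by the two-sided Fisher's exact test against the other clean reads. Fold changes and shares carry 95% exact intervals, and ratios of folds are conditional odds ratios. PCR copies of a molecule could not be told apart from separate molecules. Tag matching and the calling of large planted changes were tested on simulated reads with counting error only. Lengths, loops, tails and starts were not tested in this way.

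All member arms with reads were named, besides the 3 arms nearest to the most read one and up to 4 of the most read arms of the epithelial and mesenchymal lists. The members and lists, the ES cell list included, were chosen with earlier results of these data known. Lengths, loops and tails were described after seeing the data. Alternatives were 3 other scalings, 6 other tag rules, changed filters, changed p thresholds with or without Benjamini-Hochberg adjustment, and the exact test of edgeR at an assumed coefficient of variation of 0.2 or 0.4. Folds, ratios and shifted starts were labelled the same where direction and side of the threshold held, and call counts so labelled were equal. No member tag matched a second hairpin, so the rule of tags that match 1 hairpin only repeated the main values. Changed p thresholds, adjustment and edgeR could not change the member calls, because no fold of the 7 tested arms reached a threshold. Such values are among the 224 labelled the same. Python 3.11.15 (numpy 2.4.6, scipy 1.17.1, matplotlib 3.10.9) and R 4.3.3 (edgeR 4.0.16) were used.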

Additional observations from a re-analysis of the deposited data

How the results depend on the processing

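With 1 library per condition, no replicate could be left out and no spread could be estimated. Of 266 recomputed values, 224 were labelled the same, including some that could not change. No member was called under any scaling, tag rule, p threshold or test tried, edgeR's exact test with assumed variation included, except that with no filter on low values 1 of 11 arms was called lower (miR-200a-5p).

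Scaling decided the direction of small folds. Relative to the reads assigned to miRNA arms, every fold was multiplied by 0.734, the median of all arms shifted by -0.45 on the log2 scale, and 21 arms were called higher and 112 lower. TMM multiplied folds by 0.934 (47 higher and 59 lower) and median-ratio scaling by 0.911 (45 and 63). Relative to miRNA reads the fold was 0.774 for the chromosome 4 cluster, 0.911 for the chromosome 6 cluster, 0.761 for the AAUACUG seed group and 0.853 for the AACACUG seed group. In the same units it was 0.850 for miR-200a-3p, 0.906 for miR-200c-3p, 0.876 for miR-141-5p, 0.856 for miR-205-5p and 0.790 for all members together, against 1.08 per clean read. Under TMM and median-ratio scaling the chromosome 4 cluster stood at 0.985 and 0.961 and the AAUACUG group at 0.969 and 0.945. All members together stood at 0.981 under median-ratio scaling. The scalings of the epithelial and mesenchymal lists were added after seeing the data, and the calls changed for the epithelial list relative to miRNA reads (miR-203-3p at 1.70).

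Rules for assigning tags turned values near 1 or with few reads. With the most used tag only, the fold was 1.15 for miR-200b-5p and 0 for miR-141-5p, which then had 2 reads in DMSO and 0 in AICAR. With the reference start required it was 1.00 for miR-200b-5p and again 0 for miR-141-5p, and with tags of at least 21 nt it was 1.07 for miR-200b-5p. With 1 mismatch allowed the fold of miR-200b-3p was 1.00, and with all tags of an arm that of miR-200c-5p was 1.79, from 1 and 2 reads.

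Among ratios of folds, chromosome 4 over chromosome 6 was 0.818 with 1 mismatch allowed, and AAUACUG over AACACUG was 0.808 with the most used tag and 0.841 with tags of at least 21 nt. These passed the 0.01 threshold that the first values missed, but for chromosome 4 over chromosome 6 the interval included 1 with the most used tag (0.873) and with tags of at least 21 nt (0.876), and for the seed groups with 1 mismatch allowed (0.908). The ratio of miR-200b-3p over miR-200a-3p also passed, at 0.749 with the most used tag, 0.839 with the reference start and 0.795 with tags of at least 21 nt. That of miR-200a-3p over miR-429-3p no longer passed with 1 mismatch (1.23). The ratio of miR-200b-3p over miR-429-3p was 0.983 with the most used tag, and that of miR-200c-3p over miR-141-3p was 1.05 with the most used tag and 1.09 with all tags. The 5p over 3p ratio of folds was 1.19, 1.02 and 1.08 for Mir200b with the most used tag, the reference start and tags of at least 21 nt, and 0.717 for Mir200a with tags of at least 21 nt, where it no longer passed. With all tags it was 1.45 for Mir200c and 1.06 for Mir141. The count of miR-141-3p with all tags, 27 reads in DMSO and 34 in AICAR, takes in the 8 and 5 loop reads of that hairpin. Other causes of these changes were not tested. Depth limits miR-141 and the minor arms except miR-200b-5p, since each of these has under 30 reads in a library by the main rule.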
